A study of Mus musculus with 84 samples.

Results

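The contractile apparatus of smooth muscle was examined through 10 genes, Acta2, Actg2, Myh11, Tagln, Cnn1, Des, Smtn, Lmod1, Synpo2 and Mylk, out of 24514 genes in the count table of mouse colon. The genes were chosen by name with their RNA levels in these libraries already known, so their levels and their differences between groups are given below as a description, without a test. The study asked how diet and transplanted gut bacteria act on the colon. RNA-seq was done on germ-free C57BL/6 males, 6 weeks old at the start, that received, by gavage over 5 weeks, stool bacteria of male donors on a high fat diet (HFB) or a low fat diet (LFB), and that ate a high fat diet (HFD, 60% fat) or a low fat diet (LFD, 10% fat) themselves. The 4 groups are written as recipient diet followed by donor bacteria, HFDHFB, HFDLFB, LFDHFB and LFDLFB, with 3 libraries each. H3K27ac ChIP-seq of the same 4 groups had 11 libraries, 2 for HFDHFB and 3 for each other group. Peaks of H3K27ac and H3K4me1, each in 12 libraries, came from conventional C57BL/6 males and females of that starting age that ate the HFD or the LFD for 20 weeks (3 libraries per sex and diet), and HNF4a peaks came from 4 libraries of such males (2 per diet).

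The tissues differ between the assays. Labels give colon epithelium for all samples, but per the study's methods RNA was taken from cells scraped off the colon, whereas chromatin came from epithelial sheets shaken loose in EDTA. Chromatin peaks therefore describe another preparation than the RNA. The labels number replicates without saying that each is a separate mouse, so a p-value measures the spread between libraries, which may be technical.

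Smooth muscle cells contract when calcium and calmodulin activate myosin light chain kinase, which phosphorylates the regulatory light chain and lets smooth muscle myosin pull on actin filaments. In the colon such cells form the outer muscle coat, the thin muscularis mucosae beneath the epithelium and the walls of blood vessels. Their contractile genes are classic targets of serum response factor and its cofactor myocardin, acting through a promoter element called the CArG box. H3K27ac marks active promoters and enhancers, H3K4me1 marks enhancers and the flanks of promoters.

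Levels of different genes are compared below as CPM (a gene's counts per 1000000 counted reads) per kb of exon. Exon length is the union of the exons of all annotated transcripts of the gene. Levels of 1 gene in different libraries are compared as CPM. Both measures are scaled by edgeR's TMM factors. The 12 RNA libraries held 39904191 to 48026846 counted reads, no pair of libraries of a group agreed within sampling noise, and all 10 genes passed the filter on low counts. Markers of the labelled tissue were present: the 8 epithelial genes listed (Epcam, Cdh1, Krt8, Krt18, Krt20, Vil1, Lgals4 and Cdh17) summed to between 9327 and 13958 CPM. The 10 contractile genes summed to between 1274 and 7706 CPM, or 0.127% to 0.771% of the counted reads. Muscle transcripts were thus measured in every library labelled as epithelium.

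The promoter sequences of 5 of the genes are shown, because these 5 differ in RNA level, in CArG boxes and in the marks found at their starts in epithelium. Each is the 300 bases before the transcription start site (TSS) of the longest protein-coding transcript in GENCODE vM1, read 5′ to 3′ on the gene's strand from the mm9 (NCBIM37) genome, and capitals mark CArG boxes. Actg2 (chr6:83486260-83486559, minus strand) and Tagln (chr9:45744142-45744441, minus strand) held CArG boxes. Acta2 (chr19:34329827-34330126, minus strand), Myh11 (chr16:14291502-14291801, minus strand) and Des (chr1:75356604-75356903, plus strand) held no strict match in this window.
Actg2: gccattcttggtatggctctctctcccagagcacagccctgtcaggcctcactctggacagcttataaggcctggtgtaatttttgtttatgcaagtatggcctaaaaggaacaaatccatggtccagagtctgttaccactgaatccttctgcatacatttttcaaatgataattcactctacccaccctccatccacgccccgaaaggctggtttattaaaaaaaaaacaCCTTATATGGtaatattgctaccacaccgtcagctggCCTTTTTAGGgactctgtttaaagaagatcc
Tagln: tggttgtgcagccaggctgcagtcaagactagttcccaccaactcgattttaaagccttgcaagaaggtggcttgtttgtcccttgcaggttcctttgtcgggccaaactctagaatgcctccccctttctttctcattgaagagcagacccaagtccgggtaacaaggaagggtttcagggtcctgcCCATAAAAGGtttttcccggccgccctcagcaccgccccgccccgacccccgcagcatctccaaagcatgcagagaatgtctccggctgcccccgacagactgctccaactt
Acta2: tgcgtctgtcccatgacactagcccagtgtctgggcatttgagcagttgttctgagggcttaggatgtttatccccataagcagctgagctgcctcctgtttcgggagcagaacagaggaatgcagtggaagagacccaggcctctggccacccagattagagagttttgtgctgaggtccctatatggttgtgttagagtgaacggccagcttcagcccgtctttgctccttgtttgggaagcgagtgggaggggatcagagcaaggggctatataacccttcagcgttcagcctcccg
Myh11: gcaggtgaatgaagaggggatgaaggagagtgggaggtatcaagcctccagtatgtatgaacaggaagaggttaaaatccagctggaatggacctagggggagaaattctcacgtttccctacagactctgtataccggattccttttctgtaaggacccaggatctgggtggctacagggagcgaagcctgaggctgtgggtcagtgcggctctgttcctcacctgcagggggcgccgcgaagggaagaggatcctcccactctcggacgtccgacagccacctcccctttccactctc
Des: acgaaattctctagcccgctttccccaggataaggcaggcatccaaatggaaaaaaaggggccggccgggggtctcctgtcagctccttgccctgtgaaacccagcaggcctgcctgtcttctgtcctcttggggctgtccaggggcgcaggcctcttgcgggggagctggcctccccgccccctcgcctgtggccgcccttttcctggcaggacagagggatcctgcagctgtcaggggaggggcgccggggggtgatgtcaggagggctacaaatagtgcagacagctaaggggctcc

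The Actg2 promoter held 2 boxes, at 68 to 59 and at 31 to 22 bases upstream of the TSS, and the Tagln promoter held 1, at 112 to 103 bases upstream. The other 8 promoters held none. Over the table, 285 of 18850 promoters of the same length (1.51%) held a CArG box on either strand, and 186 of the 13993 that belonged to genes tested (1.33%). A match is a description of the letters, and a lack of one says only that the strict box is not in these 300 bases.

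Tagln, which encodes the actin-binding protein transgelin, had the highest level of the 10 genes, 633 CPM per kb on average over the 12 libraries (SD 293), and Synpo2, which encodes the actin-bundling protein synaptopodin 2, the lowest, 5.45 (SD 3.38). Between them, in falling order, came Acta2 at 325, Actg2 at 270, Cnn1 at 145, Des at 113, Myh11 at 86.9, Mylk at 32.8, Smtn at 15.2 and Lmod1 at 6.99 CPM per kb. The exon length of Synpo2 was 9403 bases over all transcripts, against 7114 in its longest protein-coding transcript. The place of Synpo2 below Lmod1 depends on which length is used. Tagln exceeded Acta2 in 12 of 12 libraries, as did Actg2 over Cnn1, Myh11 over Mylk, Mylk over Smtn and Smtn over Lmod1. Neighbours whose order did not hold in every library were Acta2 and Actg2 (10 of 12), Cnn1 and Des (11 of 12), Des and Myh11 (9 of 12), and Lmod1 and Synpo2 (11 of 12). For these 4 pairs, and for Actg2 and Cnn1, the gap between the genes stayed within the SD of the higher gene in each of the 4 groups.

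**Figure D1:**
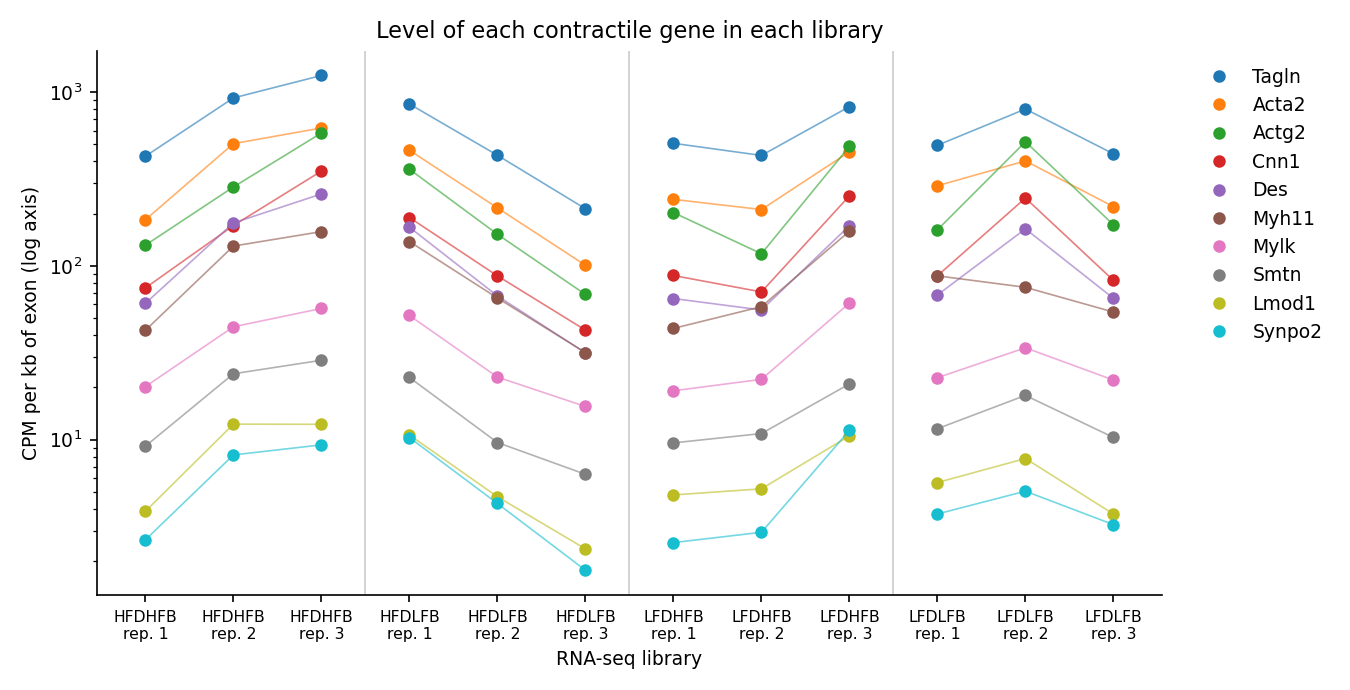
Level of each contractile gene (CPM per kb of exon, log axis) in each of the 12 RNA-seq libraries, grouped by recipient diet and donor bacteria. Lines join the points of a gene within a group to help the eye and imply no order of the replicates. All 10 genes are lowest in HFDLFB replicate 3.

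The 2 smooth muscle actins, Acta2 and Actg2, form the thin filaments of the apparatus. Acta2 encodes the alpha actin of vascular and visceral smooth muscle. Its level was 328, 899 and 1107 CPM in HFDHFB, 824, 384 and 180 in HFDLFB, 430, 376 and 807 in LFDHFB, and 515, 716 and 390 in LFDLFB. Actg2, the gamma actin typical of the gut wall, was at 205, 444 and 908 CPM in HFDHFB, 562, 237 and 107 in HFDLFB, 317, 183 and 760 in LFDHFB, and 252, 809 and 269 in LFDLFB. For both actins each group held low and high libraries, and the 4 groups overlapped. The sarcomeric actins, with coding sequences close to these, were at 1.89 to 6.69 CPM (Acta1) and 0.108 to 1.17 CPM (Actc1). The cytoplasmic actins were at 1518 to 2393 CPM (Actb) and 441 to 959 CPM (Actg1), and reads exchanged with them through near-identical exons were not tested.

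Myosin and its kinase also varied within groups. Myh11, the smooth muscle myosin heavy chain, was at 283, 862 and 1044 CPM in HFDHFB, 915, 433 and 210 in HFDLFB, 290, 386 and 1050 in LFDHFB, and 581, 499 and 360 in LFDLFB. Mylk encodes myosin light chain kinase, in long and short isoforms. Its level was 215, 475 and 605 CPM in HFDHFB, 551, 244 and 165 in HFDLFB, 203, 237 and 650 in LFDHFB, and 242, 359 and 234 in LFDLFB. LFDHFB replicate 3 was the highest library for both genes, and HFDLFB replicate 3 was the lowest. No pair of groups was separated. The antisense genes 1700119H24Rik and E130310I04Rik overlap Mylk, and since the strand setting of the counting is not given in the sources used here, their reads cannot be told apart from those of Mylk.

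Regulators of the thin filament followed. Tagln was at 678, 1467 and 1975 CPM in HFDHFB, 1354, 687 and 338 in HFDLFB, 805, 685 and 1308 in LFDHFB, and 784, 1267 and 700 in LFDLFB. Cnn1 encodes calponin, which binds actin and restrains the myosin ATPase. It was at 177, 404 and 831 CPM in HFDHFB, 449, 208 and 101 in HFDLFB, 209, 168 and 599 in LFDHFB, and 208, 582 and 196 in LFDLFB. The groups overlapped for both genes. Smtn, encoding the actin-associated protein smoothelin, ranged from 27.7 to 125 CPM, and Lmod1, encoding the actin filament nucleator leiomodin 1, from 9.30 to 48.5 CPM. Lmod1 was the only gene of the 10 to peak in HFDHFB replicate 2, by a margin of 48.5 against 48.4 CPM in HFDHFB replicate 3. Pcsk7 overlaps Tagln on the other strand, which leaves the reads of the 2 genes in the shared part indistinguishable without strand.

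The remaining genes belong to the scaffold. Des encodes desmin, the intermediate filament of muscle, and was at 229, 663 and 973 CPM in HFDHFB, 627, 252 and 119 in HFDLFB, 244, 209 and 639 in LFDHFB, and 255, 613 and 244 in LFDLFB. Des shares its locus with the antisense gene Gm15179. Synpo2 was at 25.0, 76.9 and 87.8 CPM in HFDHFB, 96.8, 40.4 and 16.7 in HFDLFB, 24.1, 27.6 and 106 in LFDHFB, and 35.2, 47.6 and 30.5 in LFDLFB. Again each group mixed low and high libraries, apart from Synpo2 in LFDLFB, where the 3 values lay close together.

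The 10 genes spread widely within groups. Summed over the 10 genes, the level was 2195, 5446 and 7706 CPM in HFDHFB, 5521, 2546 and 1274 in HFDLFB, 2581, 2340 and 6053 in LFDHFB, and 2945, 5002 and 2484 in LFDLFB. No library lay between 2945 and 5002 CPM, and every group had libraries on both sides of that gap, 5 libraries above it and 7 below it in all. The ratio of the highest to the lowest library ran from 3.94 for Mylk to 8.49 for Actg2. The SD within groups had a median of 0.87 on the log2 CPM scale over the 10 genes (range 0.72 to 1.07), against 0.28 over all 15893 genes tested, and 4 of the 10 exceeded the 90th percentile of all genes (0.92). The share of a gene's variance that lay within groups had a median of 86.1% for the 10 genes (78.0% to 93.6%) and of 75.7% for all genes. In such bulk libraries, fewer cells of a type and less RNA per cell cannot be told apart.

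Among recipients on the HFD, bacteria from HFD donors went with higher mean levels of all 10 genes than bacteria from LFD donors, but with no gene separated between the groups. The fitted log2 fold change (HFDHFB against HFDLFB) was 0.90 ± 0.69 (SE) for Des, 0.90 ± 0.72 for Cnn1, 0.79 ± 0.50 for Tagln, 0.78 ± 0.75 for Actg2 and 0.75 ± 0.56 for Acta2. It was lower for Myh11 (0.49 ± 0.62), Mylk (0.43 ± 0.54) and Synpo2 (0.30 ± 0.69). The median over the 10 genes was 0.72, beside -0.00 over all genes tested, of which 49.7% were above 0. The 10 genes moved together from library to library, as given below, so their common direction is not 10 separate results. HFDHFB and HFDLFB overlapped for all 10 genes, since HFDLFB replicate 1 exceeded HFDHFB replicate 1 throughout. Groups that do not overlap were found for 13.0% of all genes. By edgeR's quasi-likelihood test with Benjamini-Hochberg adjustment, 0 of 15893 genes passed an adjusted p of 0.05 (0%), although 1441 had an unadjusted p under 0.05, and DESeq2 called 80 genes (0.503%), none of the 10. Without HFDHFB replicate 3 the median over the 10 genes was 0.24, and without HFDLFB replicate 1 it was 1.42. Between the same groups the median log2 fold change was -3.08 for adipocyte markers (8 of 8 below 0), -2.37 for mesothelial markers (7 of 7), -0.37 for endothelial markers (8 of 8), -0.31 for leukocyte markers (8 of 8) and -0.25 for fibroblast markers (6 of 8). It was 0.05 for epithelial, 0.19 for mural, 0.25 for neuron and glia and -0.05 for interstitial cell of Cajal markers. No gene of these lists passed an adjusted p of 0.05 by edgeR, and their part in the levels of the contractile genes was not tested.

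Among recipients on the LFD, group means of the contractile genes lay close together. The log2 fold change (LFDHFB against LFDLFB) ranged from -0.08 ± 0.74 for Actg2 to 0.48 ± 0.70 for Synpo2, with 6 of the 10 above 0 and a median of 0.04 (0.02 over all genes). Acta2 stood at -0.01 ± 0.55, Cnn1 at -0.01 ± 0.71, Des at -0.03 ± 0.68 and Tagln at 0.02 ± 0.50. Groups did not overlap for 0 of the 10 and for 10.8% of all genes. edgeR called 0 genes (592 at an unadjusted p under 0.05) and DESeq2 called 1 (0.00629%), not among the 10. The median was -0.47 without LFDHFB replicate 3 and 0.54 without LFDLFB replicate 2, so its sign changed with the library left out.

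The interaction, which compares the donor's difference on the HFD with that on the LFD, had a median log2 value of 0.69 over the 10 genes (-0.05 over all genes). It ran from -0.18 ± 0.98 for Synpo2 to 0.93 ± 0.97 for Des. Mylk (0.05 ± 0.77) and Myh11 (0.23 ± 0.87) lay near the lower end, Cnn1 (0.91 ± 1.01) and Actg2 (0.86 ± 1.05) near the upper. edgeR called 0 genes, with 1794 at an unadjusted p under 0.05, and DESeq2 called 115 (0.724%), none of the 10. The median was 0.14 without HFDHFB replicate 3 and 1.36 without HFDLFB replicate 1.

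The diet comparisons use the same libraries. With HFB, the HFD went with higher means of all 10 genes, from 0.25 ± 0.54 for Mylk to 0.77 ± 0.69 for Des on the log2 scale. The median was 0.50 (-0.03 over all genes, of which 45.3% were above 0). The HFDHFB libraries are those of the donor comparison above, so the 2 results are not independent. With LFB, values ran from -0.55 ± 0.74 for Actg2 to 0.44 ± 0.69 for Synpo2, 4 of 10 above 0, with a median of -0.10 (0.00 over all genes). None of the 10 was separated between diets, where 11% (HFB) and 11.7% (LFB) of all genes were. edgeR called 0 genes in either comparison, with 1186 and 847 at an unadjusted p under 0.05, while DESeq2 called 154 (0.969%) and 11 (0.0692%), none of the 10 in either. Leaving out HFDHFB replicate 3 took the HFB median to 0.05 and leaving out LFDHFB replicate 3 took it to 1.03. The LFB median was -0.79 without HFDLFB replicate 1 and 0.29 without LFDLFB replicate 2.

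**Figure D2:**
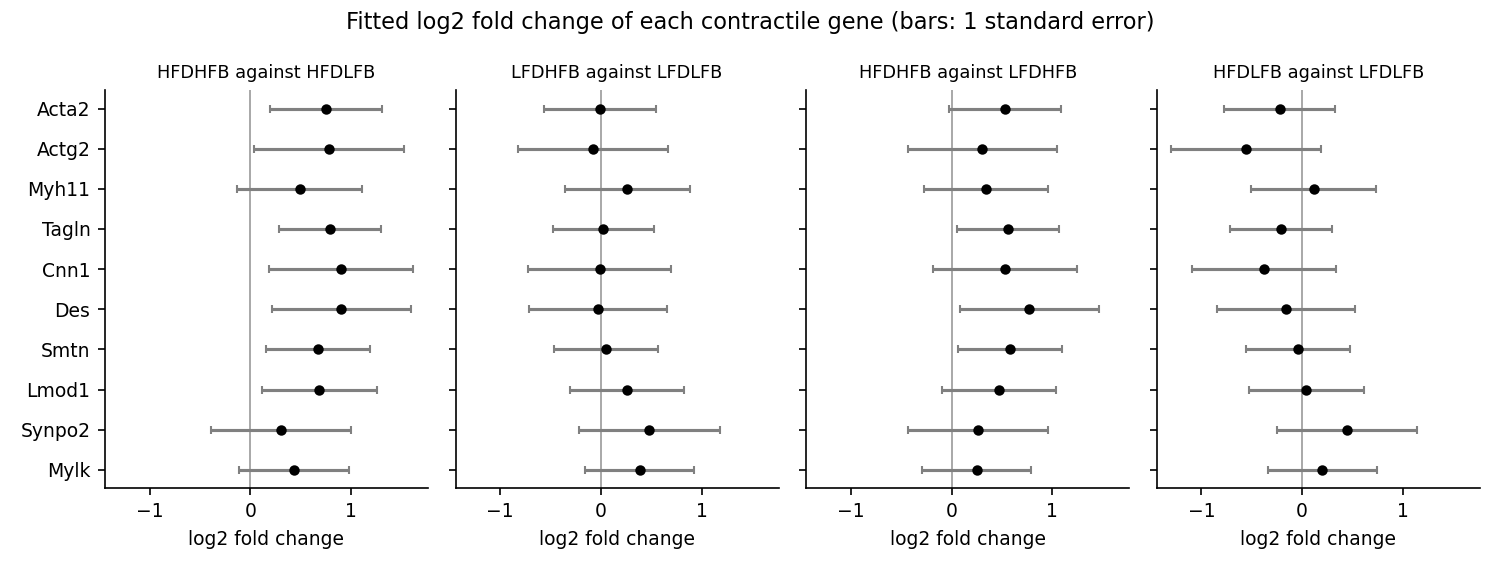
Fitted log2 fold change of each contractile gene in the 4 comparisons of recipient groups, each panel naming the groups (first against second). Points are edgeR estimates, bars 1 standard error either way. In the panels of HFDHFB against HFDLFB and HFDHFB against LFDHFB, which share the HFDHFB libraries, all 10 points lie above 0. Of all genes tested, 49.7% and 45.3% do.

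The 10 genes moved together from library to library. Over the 12 libraries the correlation of log2 CPM between pairs of the 10 (45 pairs) had a median Pearson r of 0.94, from 0.82 for Actg2 and Myh11 to 0.99 for Acta2 and Tagln, and Spearman's rho ran from 0.76 to 0.99. Without the 2 libraries farthest from the median level of 1 gene of the pair, r ran from 0.79 to 0.99. The libraries left out were not the same for all pairs. Because the libraries fell on both sides of a gap, r was also taken within the 7 libraries below it, where its median was 0.85, from 0.55 for Actg2 and Myh11 to 0.99 for Cnn1 and Des. These 7 were chosen after seeing the data, by the level of the same genes, which narrows its range, so a lower r within them is not read as a looser relation. Genes of a library share its depth and preparation, and these values carry no test.

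Actg2 and Myh11 had the lowest Pearson r of the pairs over the 12 libraries (0.82, rho 0.77). It was 0.88 without HFDHFB replicate 3 and LFDLFB replicate 2, the 2 libraries farthest from the median level of Actg2. The Actg2 to Myh11 ratio of CPM was 1.62 in LFDLFB replicate 2 and 1.09 in LFDHFB replicate 1, whereas in the other 10 libraries it lay between 0.433 and 0.870. In LFDLFB replicate 2 Actg2 was at 809 CPM, its second highest level, while Myh11 was at 499 CPM.

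The genes most like the 10 in pattern included further parts of the contractile apparatus. Ranked by Pearson r with the mean standardised log2 CPM of the 10 over the 12 libraries, the leading 10 other genes were Pcp4l1 (r = 0.994), Myl9 (0.993), Pdlim7 (0.985), Pbx3 (0.985), Dmpk (0.983), Tgfb1i1 (0.983), Pdlim3 (0.982), Tpm2 (0.979), Psd (0.978) and Speg (0.978). Myl9 encodes the regulatory myosin light chain, which Mylk phosphorylates, and ran from 113 to 689 CPM. Tpm2 encodes a tropomyosin, which lies along the actin filament, and ran from 122 to 794 CPM. In all, 259 of 15893 genes (1.63%) had an r over 0.9, the 10 themselves included, and 81 had an r under -0.9. Cytoplasmic actins did not follow, with r of 0.24 for Actb and -0.05 for Actg1, nor did the sarcomeric Acta1 (0.29) and Actc1 (0.03).

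Lists of other smooth muscle genes were set beside the 10. The summed CPM of 26 further genes of the contractile apparatus and cytoskeleton ranged from 2814 to 7517. Its r with the mean standardised level of the 10 was 0.99 (rho 0.97, 0.95 within the 7 lower libraries). It was also 0.99 without LFDHFB replicate 3 and HFDHFB replicate 3, the 2 libraries farthest from the median of that level. For 12 genes that control myosin phosphorylation r was 0.72 (0.28 within the 7) and for 17 genes of excitation and calcium handling 0.71 (0.34). For 11 smooth muscle transcription factors and cofactors r was 0.10 (0.22). These 3 sums rest mostly on few genes. By median, Rhoa was at 316 CPM where the phosphorylation list summed to 785, and Atp2a2 at 229 where the excitation list summed to 385. Srf was at 53.9 and Mkl2 at 53.1 where the transcription factors summed to 209, against 1.77 for Myocd. The r of a sum therefore does not describe each gene of its list. Between HFDHFB and HFDLFB, 20 of the 26 apparatus genes had a log2 fold change above 0, with a median of 0.28, and none of the 26 passed an adjusted p of 0.05 by edgeR. The phosphorylation list had 6 of 12 above 0 (median 0.01), the excitation list 12 of 17 (0.16) and the transcription factors tested 7 of 10 (0.15). These counts say nothing of the lists alone, since edgeR called 0 of 15893 genes (0%) in each of the 5 comparisons.

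Markers of other cells of the gut wall were followed beside the 10 genes. Enteric neuron and glia markers (8 of 8 in the table, none with a median under 1 CPM) summed to between 35.0 and 243 CPM and had an r of 0.90 with the contractile genes (0.47 within the 7 lower libraries). Pericyte and vascular mural markers summed to between 49.6 and 433 CPM with an r of 0.90 (0.48 within the 7), and 2 of the 8, Notch3 and Higd1b, had a median under 1 CPM. In the mural list Rgs5 ran from 15.4 to 331 CPM, the highest level of that list, Mcam from 7.09 to 45.7 and Pdgfrb from 7.07 to 11.1. The neuron and glia list and the mural list were both highest in LFDHFB replicate 3. Skeletal muscle markers were at 7.57 to 30.8 CPM in sum (r = 0.92, 0.38 within the 7), with Myh4, Myh1, Tnnt3, Actn3 and Tnni2, 5 of the 8 listed, at a median under 1 CPM. Ckm had the widest range of that list (2.34 to 20.8 CPM), while Acta1 (1.89 to 6.69 CPM) had an r of 0.29. Sums of these lists thus rest mostly on few genes. The part of these cells in the levels of the contractile genes was not tested.

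Further lists gave other values. Epithelial markers had an r of -0.41 (rho -0.62, -0.09 within the 7 lower libraries) with a sum of 9327 to 13958 CPM, where the highest sum of the 10 genes was 6.05 times the lowest. Markers of interstitial cells of Cajal, the pacemakers of the gut muscle, had an r of -0.81 (-0.43 within the 7) with a sum of 511 to 713 CPM. Ano1 had the largest part of that sum, with a median of 300 CPM (51.7 to 444), against 3.70 for Etv1 and 2.08 for Prkcq. In the epithelial preparation 75.0% of this list had H3K27ac at the TSS in most libraries. Which cells gave the sum was not tested. Endothelial markers had an r of 0.54 (0.58 within the 7), adipocyte markers 0.31 (0.00), fibroblast markers 0.20 (0.06), mesothelial markers 0.02 (0.16) and leukocyte markers -0.15 (0.57). Adipocyte markers varied the most, from 32.2 to 2956 CPM, with their highest level in HFDLFB replicate 2, a library low in the contractile genes.

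**Figure D3:**
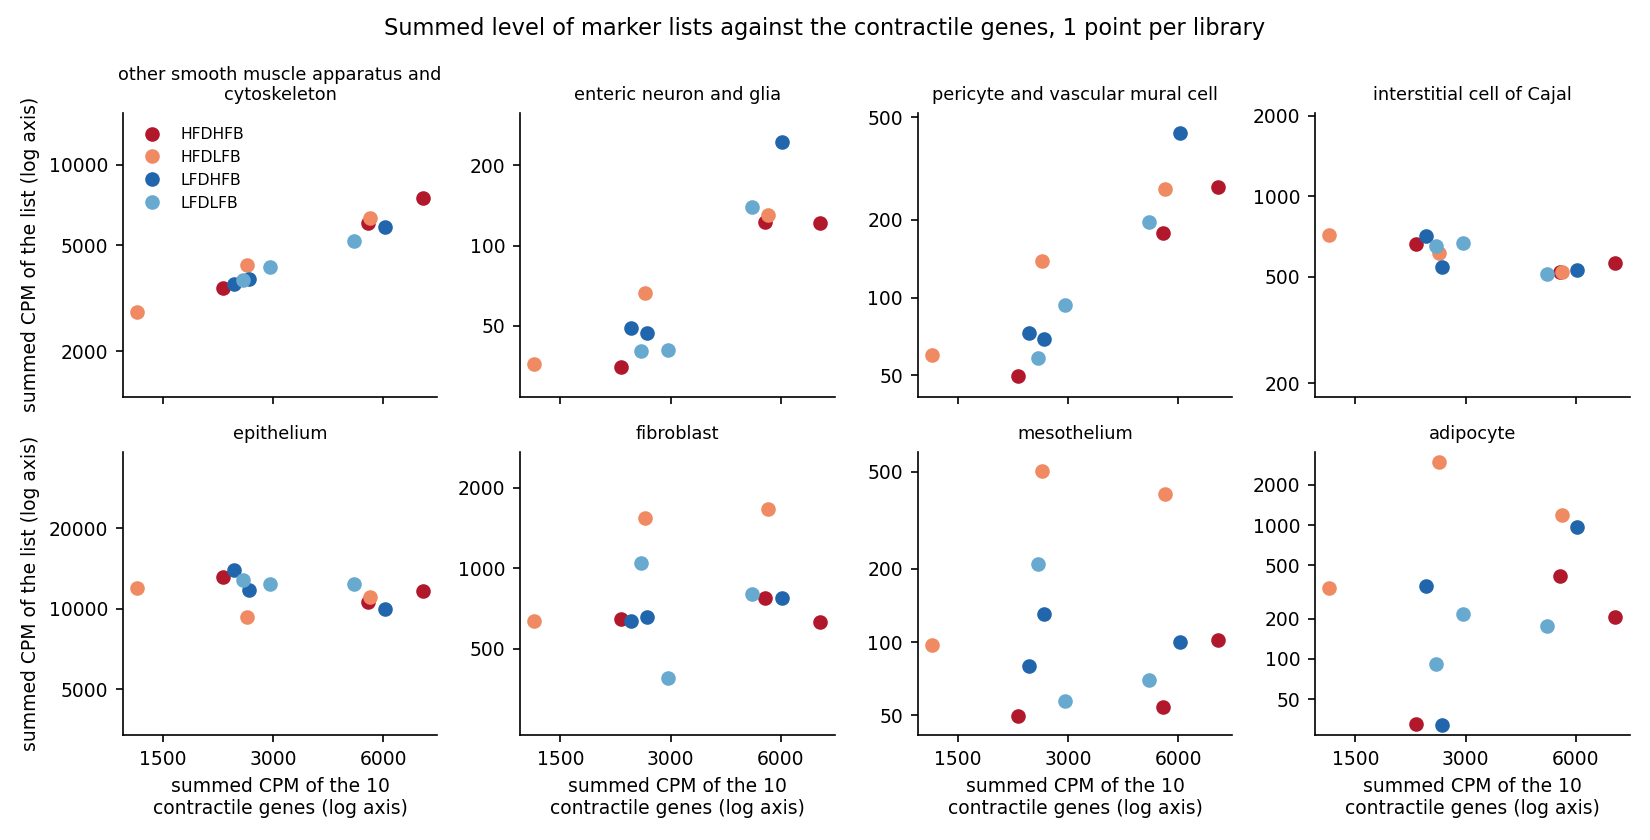
Summed CPM of 8 marker lists against the summed CPM of the 10 contractile genes, 1 point per RNA-seq library and both axes on a log scale, with colours for the 4 recipient groups. Other apparatus genes rise with the contractile genes across the whole range; neuron and mural markers are higher in the 5 libraries above the gap between 2945 and 5002 CPM, and epithelial markers stay between 9327 and 13958 CPM.

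Chromatin of the epithelial preparation carried little H3K27ac at the starts of these genes. Counting a peak within 1000 bp of the TSS in 23 H3K27ac libraries, Smtn had 1 in 23, Acta2 in 13, Actg2 in 2, Tagln and Synpo2 in 1 each, and Myh11, Cnn1, Des, Lmod1 and Mylk in none. Thus 5 of the 10 genes had no peak in any library, compared with 18.1% of the 13993 genes tested that had an annotated TSS, and with 3.03% of the 5803 genes whose mean RNA level was at or above that of the lowest of the 10 (27.6 CPM). Peaks in all 23 libraries were found for 1 of the 10, for 65.6% of genes tested and for 92.5% of those 5803. The lack of a peak was not particular to the contractile genes. It held for 76.5% of the excitation list, 75.0% each of the endothelial, neuron and glia, and adipocyte lists, and 62.5% of the fibroblast list. It also held for 6 of 10 transcription factors and 50.0% of the leukocyte list. Of the other apparatus genes, 19.2% had no peak, near the 18.1% of genes tested. The lists were not matched to the 10 genes by RNA level. The epithelial markers had a peak in all 23 libraries for 8 of 8 genes. Peak lists depend on the calling depth, which is unknown here, and a gene without a peak may still hold some signal.

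Smtn was the exception. Its TSS lay under H3K27ac in 23 of 23 libraries and under H3K4me1 in 12 of 12, and so did each of its annotated starts except that at chr11:3427940, which had neither mark in any library. Acta2 came next, with H3K27ac in 13 of 23 and H3K4me1 in 9 of 12 libraries. With a window of 5000 bp around the TSS, Actg2 reached 23 of 23 and Cnn1 20 of 23, with peaks inside Actg2 from 1.06 kb past the TSS and in the region chr9:21899801-21900800 upstream of Cnn1. None of the 3 starts of Mylk carried either mark in any library.

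Myh11 and Des combined H3K4me1 at the TSS in 12 of 12 libraries with H3K27ac in 0 of 23. This pattern was found for 19 of the 5803 genes at or above 27.6 CPM (0.327%), Myh11 (mean 576 CPM) and Des (mean 422 CPM) included, and for 458 of the 13993 genes tested (3.27%). It was also found for 2 of the 26 other apparatus genes and 2 of the 10 transcription factors. Synpo2 was similar, with H3K4me1 in 11 of 12 and H3K27ac in 1 of 23. At Tagln, Cnn1, Lmod1 and Mylk neither mark was regular at the TSS, with H3K4me1 in 0 of 12 libraries. The Actg2 start, whose promoter above holds 2 CArG boxes, had H3K4me1 in 3 of 12, and the Tagln start, with 1 box, in none.

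**Figure D4:**
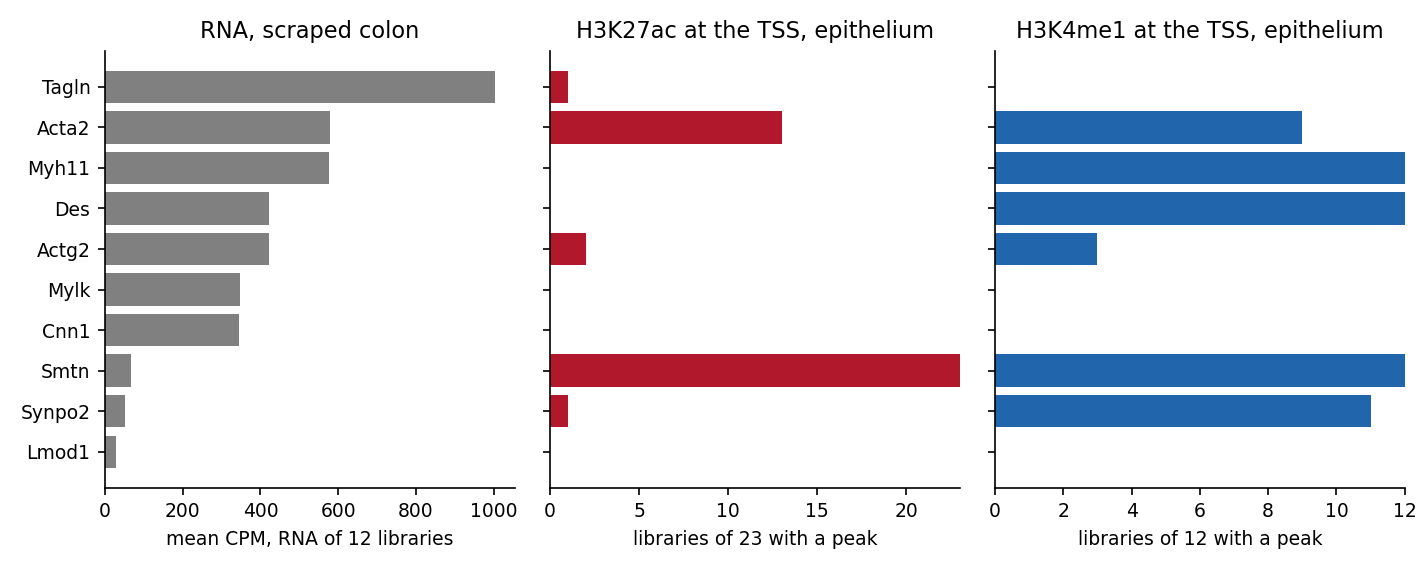
For each contractile gene, the mean RNA level over 12 libraries of scraped colon (left, CPM), the number of 23 epithelial libraries with an H3K27ac peak within 1000 bp of the TSS (middle) and the number of 12 with an H3K4me1 peak there (right). Genes are ordered by CPM, which is not corrected for length; Smtn alone reaches 23 of 23 for H3K27ac, and Myh11 and Des reach 12 of 12 for H3K4me1 with no H3K27ac peak.

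Over the whole loci, extended by 10 kb on each side, H3K4me1 was found at all 10 genes in 12 of 12 libraries, as at 90.5% of all genes tested. The loci differed greatly in H3K27ac. Myh11, over 116882 bp (chr16:14194620-14291501 extended), held 0 peaks in 23 libraries. Des (chr1:75356867-75365154 extended) held at most 1 peak, outside the gene body, in 5 of 12 long-term and 5 of 11 recipient libraries. Mylk (chr16:34785036-35002520 extended) held 7 to 12 peaks in long-term and 4 to 11 in recipient libraries, and Synpo2 (chr3:122779437-122939067 extended) 4 to 7 and 3 to 7. Windows of Actg2, Tagln, Cnn1, Des, Smtn, Lmod1 and Mylk also hold starts of other genes, so a peak in a window need not belong to the gene named.

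By long-term diet no contractile locus passed correction over all genes, a bar that this test could hardly reach. H3K27ac bases under peaks were compared between HFD and LFD with a two-sided exact permutation test within sex, whose smallest possible p is 0.005. Of the 9 genes with any varying value, Des had an exact p of 0.05, with 800 ± 657 bases on the HFD (SD, n = 6) and 133 ± 327 on the LFD (n = 6), and an adjusted p of 1. Per library the Des window held 0, 1200, 0, 1000, 1000 and 1600 bases on the HFD and 0, 0, 0, 800, 0 and 0 on the LFD (3 males, then 3 females), so peaks were present in 4 of 6 against 1 of 6. That is 1 of 9 genes, beside 4.70% of all genes with an exact permutation p of 0.05 or less. For H3K4me1 it was 0 of 10, beside 3.86%. No gene of the genome passed an adjusted p of 0.05 in either test. Since no exact p can fall below 0.005, passing needs a large share of all genes at that smallest p. The correction therefore says little about any single locus. The Des value rested on few libraries: without any of 3 LFD males or 3 HFD females it no longer reached 0.05.

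In recipients, H3K27ac peaks covered more of Mylk on the HFD than on the LFD, as for 80.7% of genes with a varying value. The Mylk difference did not pass correction over all genes. Peaks covered 19200 and 24200 bases in HFDHFB, 25400, 18800 and 19400 in HFDLFB, 12800, 16200 and 13800 in LFDHFB, and 15800, 15000 and 13000 in LFDLFB. All 5 HFD libraries lay above all 6 LFD libraries, whichever bacteria were given. The means were 21400 ± 3140 bases (SD, n = 5) on the HFD and 14433 ± 1445 (n = 6) on the LFD, a difference of 6967 bases, with a two-sided exact permutation p of 0.005 within donor groups, the smallest possible, and an adjusted p of 0.174 over 17814 genes. No gene passed an adjusted p of 0.05, which needs a large share of all genes at the smallest possible p. The adjusted p of Mylk was the smallest of any gene, and every gene at an exact permutation p of 0.005 shares it. Of all genes, 16.6% had an exact permutation p of 0.05 or less. How many were separated by diet as Mylk was is not counted here. Peaks covered more of the genome in HFD recipients (107 to 132 Mb, median 123) than in LFD recipients (93.1 to 117 Mb, median 103), and 14378 of 17814 genes were higher on the HFD. Divided by each library's covered share, Mylk was still higher on the HFD, by 4421 bases (exact permutation p = 0.01), with some overlap of the groups. The number of Mylk peaks was 9.0 ± 1.41 on the HFD and 7.5 ± 2.07 on the LFD (exact permutation p = 0.23).

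Most of the Mylk signal sat far from the start of the longest transcript. The widest region, chr16:34923601-34941000 (17400 bp, 139 kb past that start), lay under H3K27ac in all 11 recipient libraries, under H3K4me1 in 12 of 12 and under HNF4a in 4 of 4. This region lay between the annotated starts of shorter transcripts at chr16:34900328 and chr16:34953352. It was covered over 12800 to 15800 bases on the HFD (mean 14080) and 7800 to 13000 on the LFD (mean 11267). A second region, chr16:34977401-34980200, had a peak in 3 of 5 HFD recipients and in 0 of 6 LFD recipients. In long-term libraries it had a peak in 5 of 6 on the HFD and 4 of 6 on the LFD. It is named for its lack of peaks on the LFD, and single regions were not tested. Not all Mylk regions went that way. Mean covered bases were lower on the HFD in chr16:34861601-34864000 (600 against 867) and chr16:34958201-34959600 (200 against 467), while most other regions were higher. RNA of Mylk in the same groups was 1.19-fold higher on the HFD with HFB (log2 0.25 ± 0.54) and 1.15-fold with LFB (log2 0.20 ± 0.54), differences within their SE. In long-term mice Mylk peaks covered 27000 ± 4002 bases on the HFD and 23900 ± 4550 on the LFD (n = 6 each, exact permutation p = 0.265). Covered genome had a median of 118 Mb on the long-term HFD and 108 Mb on the LFD, and after division by it the Mylk difference was 1604 bases (exact permutation p = 0.42). Whether the recipient and long-term differences differ was not tested.

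Peaks at Smtn covered 14086 ± 448 bases (SD, n = 5) in HFD recipients and 12271 ± 1188 (n = 6) in LFD recipients, with an exact permutation p of 0.02 and an adjusted p of 0.23. LFDHFB replicate 1, at 13676 bases, matched the lower HFD libraries, so the groups overlapped. Once divided by the covered share of the genome, Smtn differed by 75.3 bases (exact permutation p = 0.89). Mylk and Smtn made 2 of 9 genes with a p of 0.05 or less by diet, beside 16.6% of all genes. After that division the 2 were Mylk and Synpo2, beside 11.2% of all genes. Synpo2 was lower on the HFD, at 13730 ± 1403 (n = 5) against 17315 ± 1233 (n = 6), with an exact permutation p of 0.005 and an adjusted p of 0.25.

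By donor, Acta2 was the 1 of 9 genes with an exact permutation p of 0.05 or less, beside 4.36% of all genes. Its window (chr19:34314826-34329863 extended) held 3200 and 4400 bases under H3K27ac in HFDHFB, 3600, 2200 and 2600 in LFDHFB, 4600, 4800 and 7775 in HFDLFB, and 4663, 5400 and 3863 in LFDLFB. Within each diet every LFB library exceeded every HFB library, and how many of all genes did the same was not counted. Means were 3200 ± 860 (SD, n = 5) with HFB and 5184 ± 1361 (n = 6) with LFB, with an exact permutation p of 0.005 and an adjusted p of 1. Peaks also covered less of the genome with HFB (median 105 Mb) than with LFB (median 116 Mb), and 36.5% of all genes were higher with HFB. Of the 776 genes with an exact permutation p of 0.05 or less, 128 were higher with HFB, so the direction of Acta2 was the common one. Divided by covered share, Acta2 was at 3242 ± 575 with HFB and 5064 ± 1069 with LFB (exact permutation p = 0.01, n = 5 and 6). Within the gene body alone the values were 955 ± 745 and 1050 ± 661 bases (exact permutation p = 0.81), and the rest of the difference lay in the flanks. RNA of Acta2, taken from scraped tissue, had a log2 difference of 0.75 ± 0.56 between HFDHFB and HFDLFB and of -0.01 ± 0.55 between LFDHFB and LFDLFB.

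**Figure D5:**
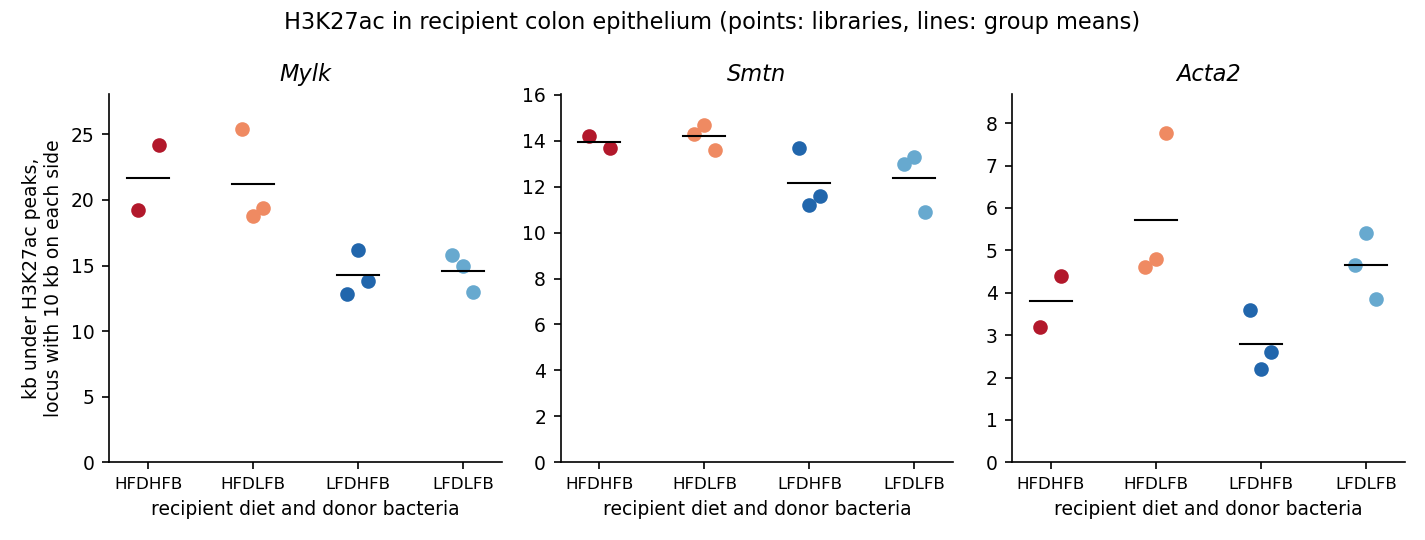
Kb under H3K27ac peaks in the window of Mylk, Smtn and Acta2 (gene locus with 10 kb on each side) in recipients, by diet and donor bacteria. Points are libraries and lines group means, with y axes from 0. All 5 HFD points of Mylk lie above all 6 LFD points, and the HFB points of Acta2 lie below the LFB points of the same diet. How many of all genes show such an order was not counted.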

How the data were processed

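RNA-seq of 12 recipient libraries and ChIP-seq peaks of 23 H3K27ac, 12 H3K4me1 and 4 HNF4a libraries were used. Per the labels and methods, the authors aligned RNA reads to mm9 with STAR 2.5 and deposited raw counts per gene from featureCounts 1.5.0-p1; ChIP reads were aligned with Bowtie 0.12.8, de-duplicated with Picard 1.110 and called with SICER (histone marks) or HOMER (HNF4a). The deposited peak lists hold positions only, so ChIP depth is unknown, and input libraries were not used here. Counts were analysed with edgeR 4.0.16 (limma 3.58.1, R 4.3.3), all 12 libraries in 1 quasi-likelihood fit with TMM factors, filterByExpr and a prior count of 2; the study used DESeq2, run here as an alternative (1.42.0). Of 25494 rows, 980 repeats with identical counts were dropped. Bases under peaks per locus with 10 kb on each side were compared by exact permutation within strata (Python 3.11.15, numpy 2.4.6, pandas 2.3.3, scipy 1.17.1). TSS are from GENCODE vM1, and sequences were read with samtools 1.23.1. Statistics were tested on simulated data. Replicate numbers did not pair the RNA libraries: of 18 same-number pairs, r of the deviations ran from -0.59 to 0.45, and 1 of 12 libraries fitted its own number best. The members and lists were chosen with earlier results of these data known. Genes named are the 10 members, the 10 most correlated genes, 4 other actins, listed genes past the threshold (none) and marker genes at or near 0, with the epithelial markers named as the check of tissue; correlations within the 7 lower libraries and use of any protein-coding TSS were added after seeing the data. Alternatives varied size factors, filters, tools, windows, scaling and libraries.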

Additional observations from a re-analysis of the deposited data

Results flagged for a closer look

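HNF4a peaks, which no comparison above uses for these genes, were found in the Mylk window in every library: 7 and 8 on the long-term HFD and 9 and 6 on the LFD, so the lowest of the 4 libraries held 6. HNF4a is a nuclear receptor of epithelial cells. Synpo2 had 3 to 6 such peaks per library. Of all genes tested, 37.7% had an HNF4a peak in the window in all 4 libraries, and long windows such as those of Mylk and Synpo2 hold more sequence. No control peak list was analysed here.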

How the results depend on the processing

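Counts of genes past the threshold were 0 in edgeR under each scaling, filter and left-out library, and 80, 1, 115, 154 and 11 with DESeq2 for HFDHFB against HFDLFB, LFDHFB against LFDLFB, the interaction, HFDHFB against LFDHFB and HFDLFB against LFDLFB. The replicate block, a fit paired by replicate number, gave medians over the 10 genes of 0.63, 0.03, 0.66, 0.48 and -0.03 in that order, and changed no call. Leaving out a library gave medians of 0.24 to 1.42, -0.47 to 0.54, 0.14 to 1.36, 0.05 to 1.03 and -0.79 to 0.29. Of 840 values of single genes, 837 moved by less than the SD within groups; the 3 others were Synpo2 without LFDHFB replicate 3 (-0.55, 0.85 and 1.29 for LFDHFB against LFDLFB, the interaction and HFDHFB against LFDHFB). For bases under H3K27ac peaks, the number of the 10 genes at an exact permutation p of 0.05 or less is given with the share of all genes in brackets. By long-term diet it was 0 with the gene locus only (3.75%), 2000 bp at the TSS (2.11%) or the number of peaks (1.48%). With a library left out it was 0 to 1 (3.97% to 7.93%). By donor it was 0 with the locus only (3.92%) and with the number of peaks (2.09%). It was 1 with a library left out (2.95% to 6.98%) or at the TSS (3.43%), there Smtn. By diet in recipients it was 1 with the locus only (12.2%), 0 at the TSS (7.14%) and 0 with the number of peaks (5.25%). With a library left out it was 2 to 3 (12.1% to 19.7%). With covered share it was 2 (11.2%), Mylk and Synpo2, the latter -3585 bases for HFD minus LFD (exact permutation p = 0.005). With 5000 bp on either side, 4 genes in place of 2 had H3K27ac at the TSS in most libraries. The causes were not tested. ChIP depth is unknown, so a missing peak sets no limit on the signal.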
